A study of Mus musculus with 16 samples.

Results

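Twist1 heterozygous and wild-type cells of the mouse coronal suture were compared after 7 days in culture, on 8 of the 16 arrays of the series. All arrays labelled with that time point were taken, 4 from Twist1+/- and 4 from wild-type cells, with control medium and thyroxine both used. The mice were C57BL6, and cells from 2 litters of mixed genotype were sorted into separate cultures by genotype and by sex. Each genotype therefore had 1 female and 1 male culture, and each culture gave an array in plain proliferation medium and an array with thyroxine, whose log10 concentration in mol per liter was -6. Thyroxine is the thyroid gland's chief secreted hormone. The 4 groups of 2 arrays were Twist1+/- in control medium, Twist1+/- with thyroxine, wild type in control medium and wild type with thyroxine. The arrays at 3 days came from the same genotypes, sexes and media, and are used only where the days are compared. The labels give neither the allele nor the number of animals behind a culture, and do not say whether RNA of the 3 wells per condition was pooled. A culture is the unit that carries the genotype, so each comparison rests on 2 cultures against 2, for which an exact two-sided permutation test cannot give a p below 0.333. Values are log2 array levels, so a difference of 1 is a doubling, and the number of arrays limits their precision.

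Twist1, found in mesenchymal cells, is a transcription factor of the basic helix-loop-helix family. It binds DNA as a pair with itself or with E proteins such as Tcf3, Tcf4 and Tcf12, and the Id proteins take E proteins away from such pairs because they lack the DNA-binding part. In the coronal suture, which separates the frontal from the parietal bones, mesenchymal cells are kept from turning into bone too early, and FGF, BMP and ephrin signals act there. Loss of a copy of Twist1 causes Saethre-Chotzen syndrome, in which this suture closes early.

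The basic helix-loop-helix proteins recognise the E-box, spelled CANNTG, so the promoter windows of the leading genes of the comparison are shown with every match in capitals. Each window runs from 250 bases before to 50 bases after an annotated start, 5′ to 3′ on the gene's strand (RefSeq, GRCm38.p6). Of the 10 genes that led the higher direction, 7 had such a window in the RefSeq table. Slc13a5, Adgrg2, Frzb and Nt5e are printed because they had the smallest p values among these 7.
Slc13a5, start 1, chr11:72267112-72267411, minus strand: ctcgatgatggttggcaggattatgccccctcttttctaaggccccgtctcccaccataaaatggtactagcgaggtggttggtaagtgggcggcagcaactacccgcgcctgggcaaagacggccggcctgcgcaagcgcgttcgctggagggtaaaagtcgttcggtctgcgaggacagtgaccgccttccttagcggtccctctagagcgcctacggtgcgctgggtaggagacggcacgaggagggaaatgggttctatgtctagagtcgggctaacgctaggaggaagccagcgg
Slc13a5, start 2, chr11:72266555-72266854, minus strand: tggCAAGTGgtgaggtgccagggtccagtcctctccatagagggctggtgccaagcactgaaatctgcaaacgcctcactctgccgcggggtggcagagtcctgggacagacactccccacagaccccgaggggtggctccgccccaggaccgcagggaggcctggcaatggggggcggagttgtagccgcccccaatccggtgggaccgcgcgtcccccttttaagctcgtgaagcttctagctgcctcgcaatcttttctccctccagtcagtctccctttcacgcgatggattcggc
Adgrg2, chrX:160390440-160390739, plus strand: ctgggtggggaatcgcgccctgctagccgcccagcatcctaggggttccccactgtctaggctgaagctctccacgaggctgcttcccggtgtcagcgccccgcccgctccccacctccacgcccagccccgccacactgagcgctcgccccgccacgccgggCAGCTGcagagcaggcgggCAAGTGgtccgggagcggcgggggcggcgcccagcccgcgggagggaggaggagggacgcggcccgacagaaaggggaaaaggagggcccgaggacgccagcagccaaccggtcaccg
Frzb, chr2:80447347-80447646, minus strand: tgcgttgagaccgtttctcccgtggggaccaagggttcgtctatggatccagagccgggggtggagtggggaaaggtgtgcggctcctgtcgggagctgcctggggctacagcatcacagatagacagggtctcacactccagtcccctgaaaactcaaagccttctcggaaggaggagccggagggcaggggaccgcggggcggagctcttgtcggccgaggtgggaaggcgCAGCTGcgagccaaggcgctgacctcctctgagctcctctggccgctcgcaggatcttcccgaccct
Nt5e, chr9:88327359-88327658, plus strand: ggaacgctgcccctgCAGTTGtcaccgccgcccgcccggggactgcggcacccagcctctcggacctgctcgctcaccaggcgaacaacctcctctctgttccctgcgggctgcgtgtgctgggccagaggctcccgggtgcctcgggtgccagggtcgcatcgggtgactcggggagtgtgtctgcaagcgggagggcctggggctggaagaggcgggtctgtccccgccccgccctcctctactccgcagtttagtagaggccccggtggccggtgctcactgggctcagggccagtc
The first window of Slc13a5 held 0 matches and the second held 1, CAAGTG. Adgrg2 held 2, CAGCTG and CAAGTG, Frzb held CAGCTG, and Nt5e held CAGTTG. Of the 32851 full-length windows counted, which leave out a chromosome of the table, 72.3% held at least 1 CANNTG and 16.3% held CAGCTG. Matches on either strand were counted. A match in these windows is thus common. The matches describe the letters of the windows. Binding was not measured.

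The arrays held high levels of mesenchymal and of macrophage genes. Of 18 mesenchymal markers, 10 had a mean level of at least 8 at 7 days, and of 26 macrophage markers, 20 did. Epithelial, muscle, neural and lymphoid markers had 0 members at that level, and 5 of 9 epithelial, 7 of 9 lymphoid and 5 of 12 endothelial markers were below the level needed for testing. The mean over the macrophage list ran from 8.75 to 9.15 on the 8 arrays, and that over the mesenchymal list from 7.44 to 8.44. In such mixed cultures, fewer cells of a type and less RNA per cell cannot be told apart. Xist and Uty matched the labelled sex on all 8 arrays, with Xist between 6.82 and 7.54 in female and between 2.93 and 3.33 in male cultures, and Uty between 2.86 and 3.05 in female and between 6.14 and 6.72 in male cultures.

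The wild-type male culture stood apart from the other 3. Among the 13453 genes tested, it was at least 1 below each of the other cultures at 176 genes (1.31%) and at least 1 above each of them at 41. The same counts were 5 below and 0 above for the wild-type female culture, 0 and 1 for the Twist1+/- female culture, and 1 and 1 for the Twist1+/- male culture. Female and male arrays of the same medium correlated across genes at 0.984 in Twist1+/- cells and at 0.954 to 0.970 in wild-type cells. Results below are therefore given for each sex, since the female values do not use the wild-type male culture. Some lists are also counted without that culture, where 59.7% of all genes tested were higher in Twist1+/- cells, with a median of 0.047. With 1 culture of each sex per genotype, sex and culture cannot be told apart, and whether the genotype difference depends on sex was not tested.

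The first comparison set Twist1+/- against wild type over both media. No gene of the 13453 passed the test (limma, smallest Benjamini-Hochberg adjusted p = 0.412), so 0% were called, and 535 genes (3.98%) had an unadjusted p under 0.05 in limma. Of those, 402 (2.99% of the genes tested) were higher and 133 (0.989%) lower in Twist1+/- cells. All 4 Twist1+/- arrays were above all 4 wild-type arrays at 489 genes (3.63%) and below them at 210 genes (1.56%). The 4 comparisons of arrays of the same sex and medium agreed in sign at 1274 higher genes (9.47%) and 794 lower genes (5.9%). At any size of difference, 7610 genes (56.6%) were higher in Twist1+/- cells over both sexes.

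The female and the male cultures agreed little in their genotype differences. The sign was the same in both sexes for 6251 genes, 46.5% of those tested. The female and the male differences, which share no array, correlated at -0.213 over the 13453 genes, and genes are not independent replicates. A difference of at least 1 in size was seen at 68 genes (0.505%) in the female cultures and at 393 (2.92%) in the male cultures. At 29 genes (0.216%) both sexes differed by at least 1 and in opposite directions. Only Slc13a5 (0.00743%) was higher by at least 1 in both sexes, and Defa21, Prss23 and Ywhag (0.0223%) were lower by at least 1 in both. Prss23 and Ywhag are taken up with the media below. With a smaller margin of 0.5, 31 genes were higher in both sexes, 28 were lower in both and 211 went opposite ways.

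**Figure D1:**
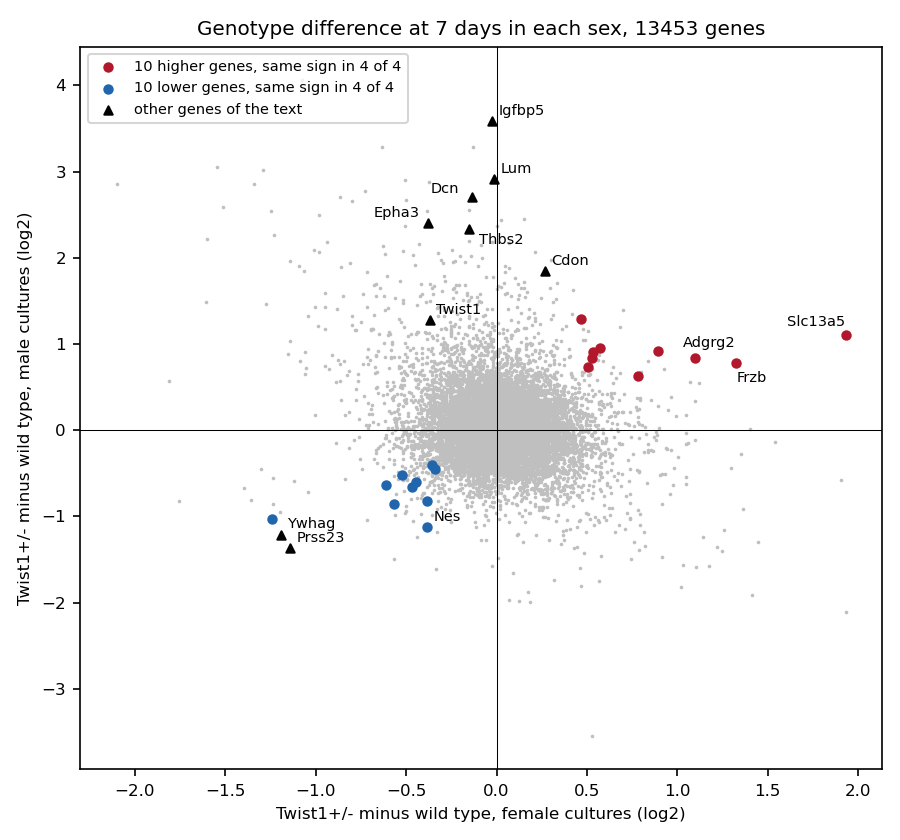
Genotype difference at 7 days (Twist1+/- minus wild type, log2, mean of both media) in the female cultures on the x axis and in the male cultures on the y axis, for each of the 13453 genes tested. The points spread further along the male axis than along the female axis (SD across genes 0.414 and 0.241), and Slc13a5 lies alone at the upper right, at 1.93 and 1.11.

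Among genes higher in Twist1+/- cells, Slc13a5 had the smallest p and the largest difference of those that agreed in all 4 comparisons. It encodes a sodium-coupled citrate transporter of the plasma membrane. In the order control medium, then thyroxine, which holds for all pairs of values below, its levels were 8.17 and 8.07 in the Twist1+/- female culture and 8.29 and 7.86 in the Twist1+/- male culture, against 6.29 and 6.09 in the wild-type female and 7.09 and 6.84 in the wild-type male culture. The lowest Twist1+/- array was thus above the highest wild-type array. The difference was 1.52 ± 0.21 (SE, n = 4 arrays from 2 cultures per genotype, limma adjusted p = 0.412), with 1.93 in the female and 1.11 in the male cultures. Without the wild-type male culture it was 1.91 ± 0.12 and passed the test (limma adjusted p = 3.78e-05), a fit in which 1 wild-type culture stands for its genotype.

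Adgrg2, an adhesion G protein-coupled receptor, had levels of 5.75 and 5.80 in the Twist1+/- female and 5.42 and 5.25 in the Twist1+/- male culture, against 4.60 and 4.75 in the wild-type female and 4.58 and 4.41 in the wild-type male culture. The difference was 0.97 ± 0.18 (SE, n = 4 arrays per genotype, limma adjusted p = 0.967). Frzb, a secreted Frizzled-related protein that binds WNT ligands, measured 5.13 and 5.65 in the Twist1+/- female and 4.97 and 4.84 in the Twist1+/- male culture, against 3.99 and 4.14 in the wild-type female and 4.07 and 4.19 in the wild-type male culture. For both genes the groups did not overlap, and the wild-type cultures of the 2 sexes lay close together, so the difference was present in the female cultures (1.10 and 1.33) as in the male cultures (0.84 and 0.78). Frzb differed by 1.05 ± 0.20 (SE, n = 4 arrays per genotype, limma adjusted p = 0.967).

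Pappa encodes a secreted metalloproteinase that frees IGF by cleaving its binding proteins. It measured 8.90 and 8.78 in the Twist1+/- female and 8.93 and 8.76 in the Twist1+/- male culture, against 8.23 and 8.38 in the wild-type female and 8.02 and 7.85 in the wild-type male culture, a difference of 0.72 ± 0.14 (SE, n = 4 arrays per genotype). Nt5e, a cell surface enzyme that makes adenosine and a marker of mesenchymal cells, measured 6.20 and 6.21, then 6.27 and 6.37, in the Twist1+/- female and male cultures, against 5.59 and 5.68, then 5.49 and 5.25, in the wild-type ones. Nt5e differed by 0.76 ± 0.15 (SE, n = 4 arrays per genotype). The 4 Twist1+/- values of each gene lay within a narrow range, and no wild-type array reached them. Both had a limma adjusted p of 0.967.

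The other 5 genes that led the higher direction were Clec4n, a C-type lectin receptor of myeloid cells, by 0.68 ± 0.13 (SE), Zfp758, a zinc finger protein, by 0.70 ± 0.14, Eif4a2, an RNA helicase of translation initiation, by 0.88 ± 0.18, Kng2, a kininogen, by 0.91 ± 0.19, and Sytl2, a synaptotagmin-like protein of vesicle transport, by 0.62 ± 0.13 (n = 4 arrays per genotype for each). Eif4a2 alone among these 5 overlapped between the genotypes, because its Twist1+/- female thyroxine array at 7.73 was below the wild-type female control array at 7.77. In the other 4 every Twist1+/- array was above every wild-type array, which their choice by p and sign favours. That was so at 3.63% of all genes tested. The 5 differences ran from 0.47 (Eif4a2) to 0.90 (Kng2) in the female and from 0.63 (Zfp758) to 1.30 (Eif4a2) in the male cultures.

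**Figure D2:**
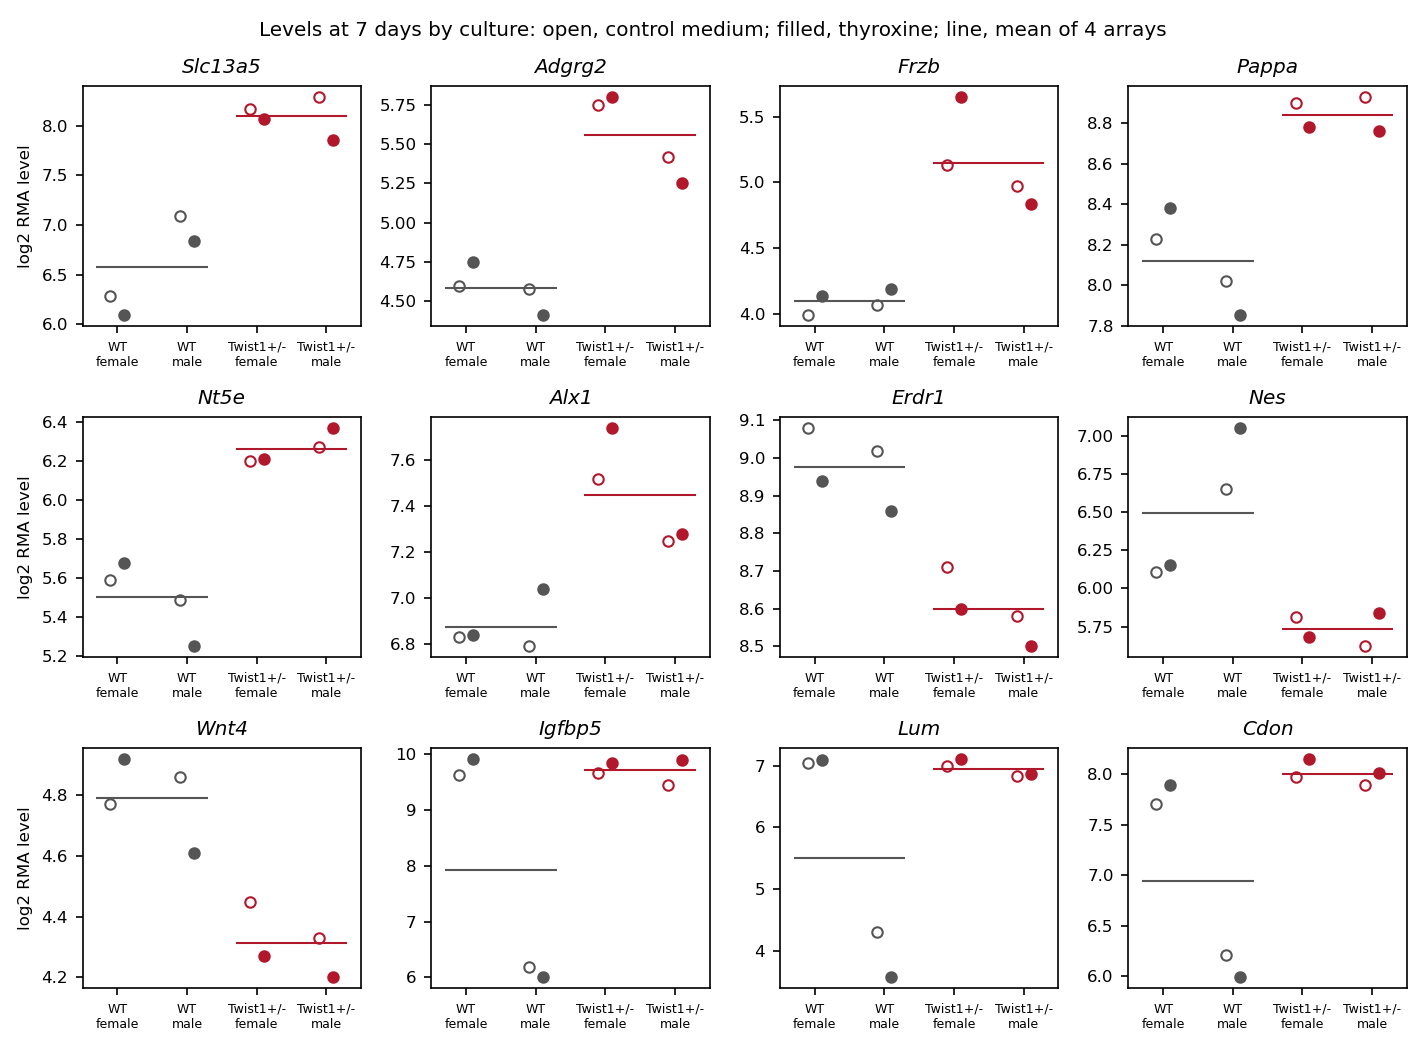
Log2 level (y axis) of 12 genes on each 7-day array, by culture (x axis), with open circles for control medium, filled circles for thyroxine and lines at the mean of the 4 arrays of a genotype. The scale starts near the lowest value of each gene. Slc13a5, Adgrg2, Frzb, Pappa, Nt5e and Alx1 are higher and Erdr1, Nes and Wnt4 lower on all 4 Twist1+/- arrays, while for Igfbp5, Lum and Cdon the wild-type male culture alone is low.

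Most genes that led the lower direction had smaller differences. Erdr1, named for regulating erythroid differentiation, had the smallest p among those that agreed in all 4 comparisons. It measured 8.71 and 8.60 in the Twist1+/- female and 8.58 and 8.50 in the Twist1+/- male culture, against 9.08 and 8.94 in the wild-type female and 9.02 and 8.86 in the wild-type male culture, a difference of -0.38 ± 0.10 (SE, n = 4 arrays per genotype, limma adjusted p = 0.967). Nes, the intermediate filament protein nestin of progenitor cells, measured 5.81 and 5.68, then 5.62 and 5.84, in the Twist1+/- female and male cultures, against 6.11 and 6.15, then 6.65 and 7.05, in the wild-type ones. The groups did not overlap for either gene, but the wild-type male culture was the highest for Nes, so its difference of -0.75 ± 0.22 (SE, n = 4 arrays per genotype) was made of -0.39 in the female and -1.12 in the male cultures.

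Defa21, an alpha-defensin gene, had the largest difference among the 10 genes that led this direction. It measured 4.85 and 4.87, then 3.87 and 4.73, in the Twist1+/- female and male cultures, against 5.82 and 6.39, then 5.37 and 5.30, in the wild-type ones, a difference of -1.14 ± 0.31 (SE, n = 4 arrays per genotype, limma adjusted p = 0.967). All 4 Twist1+/- arrays were lower, by -1.25 in the female and -1.04 in the male cultures, whereas at 3 days the gene differed by -0.14. The alpha-defensin genes are near-identical copies, and probes may read several of them, so this assignment is uncertain.

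The remaining 7 genes ran from -0.71 ± 0.20 (SE) for Rln1, a relaxin hormone, to -0.40 ± 0.12 for Phkg2, a subunit of phosphorylase kinase (n = 4 arrays per genotype). Between them lay Gjd3, a connexin of gap junctions, at -0.62, Btbd17 at -0.61, Ldlrad1 at -0.56, Ifna15, an interferon alpha gene with close relatives, at -0.53 and Ppifos, an antisense RNA, at -0.52. None of these 7 overlapped between the genotypes, which their choice by p and sign favours. Over all genes tested, 1.56% were below on every Twist1+/- array. Rln1, Btbd17, Ifna15 and Ppifos had levels under 5 on every 7-day array, close to the level of 3.905 needed for testing, where array differences are compressed. Levels were also under 5 for Zfp758 (4.09 to 4.96), and for Wnt4, Bmp5 and Gdf6, which are given later. The wild-type arrays of Frzb (3.99 to 4.19), Kng2 (3.98 to 4.54), Adgrg2 (4.41 to 4.75) and Dio2 (4.38 to 4.86), a gene given later, lay there too.

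Twist1 itself was not lower in the heterozygous cells as a group. Its levels were 6.51 and 7.08 in the Twist1+/- female and 7.55 and 7.22 in the Twist1+/- male culture, against 7.36 and 6.97 in the wild-type female and 6.07 and 6.14 in the wild-type male culture. The genotypes overlapped, with the wild-type male culture lowest. The difference was 0.46 ± 0.34 (SE, n = 4 arrays per genotype, limma adjusted p = 0.967), made of -0.37 in the female and 1.28 in the male cultures. At 3 days these differences were -0.43 and 0.79. The labels do not say where the probes lie relative to the altered part of the gene, so these levels do not check the genotype labels.

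Of the 15 genes of Twist1, its partners and its inhibitors, 13 were bright enough for testing and 0 passed. Of the 13, 4 were higher and 9 lower, where 56.6% of all genes tested were higher. In all 4 comparisons 3 were lower, against 5.9% of all genes tested. Their median difference was -0.12, against 0.03 over all genes tested. Id2, an inhibitor of E proteins, was the only member whose groups did not overlap. It measured 8.84 and 8.80, then 8.71 and 8.69, in the Twist1+/- female and male cultures, against 8.91 and 8.92, then 9.07 and 9.34, in the wild-type ones. Most of its difference of -0.30 ± 0.13 (SE, n = 4 arrays per genotype, limma adjusted p = 0.967) came from the male cultures (-0.51), with -0.10 in the female ones.

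Id1, another inhibitor, differed by -0.37 ± 0.20 (SE) with the same imbalance, -0.04 in the female and -0.70 in the male cultures, while Id3 differed by 0.005 and Id4 by -0.22. Twist2, the close relative of Twist1, differed by -0.44 ± 0.23 (SE, n = 4 arrays per genotype), with -0.38 in the female and -0.50 in the male cultures. Its levels lay between 3.36 and 4.42, near the lower end of the range. The E protein gene Tcf3 differed by -0.12 and was lower in all 4 comparisons, at 7.93 to 8.05 against 8.04 to 8.18. The E protein genes Tcf4 and Tcf12 differed by -0.05 and 0.11, with opposite signs in the 2 sexes. Hand1, Hand2, Scx and Msc, other members of the same transcription factor family, lay between -0.27 and 0.16. Tcf15 and Tcf21 were below the level needed for testing.

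**Figure D3:**
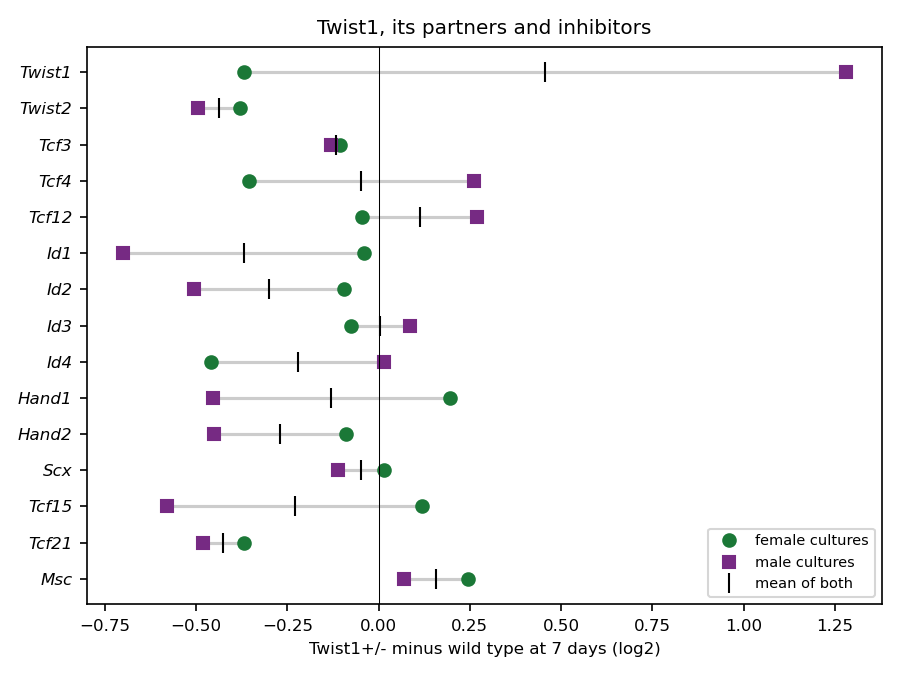
Genotype difference at 7 days (x axis, log2) for the 15 genes of the Twist1 list (y axis), with circles for the female cultures, squares for the male cultures and a tick at their mean. Twist1 has the widest gap between the sexes, from -0.37 to 1.28, and Tcf15 and Tcf21 are drawn although they were too dim for testing.

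Among 19 tested transcription factors of suture and skull patterning, 0 passed, 11 were higher and 7 lower. Of the 19, 6 were higher without the wild-type male culture. Alx1, a homeobox factor of the facial and frontal mesenchyme, measured 7.52 and 7.74 in the Twist1+/- female and 7.25 and 7.28 in the Twist1+/- male culture, against 6.83 and 6.84 in the wild-type female and 6.79 and 7.04 in the wild-type male culture. Its groups did not overlap, and its difference of 0.57 ± 0.14 (SE, n = 4 arrays per genotype, limma adjusted p = 0.967) was larger in the female (0.80) than in the male cultures (0.35). At 3 days it was 0.63, with 0.69 and 0.58 in the 2 sexes. Six2, a homeobox factor of suture progenitors, was also above on every array, by 0.37 ± 0.15 (SE), at 7.20 to 7.45 against 6.80 to 7.15.

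Dlx2, a homeobox factor of neural crest derivatives, was below on every Twist1+/- array, at 6.16 to 6.69 against 6.72 to 7.88, by -0.60 ± 0.26 (SE, n = 4 arrays per genotype), with -0.31 in the female and -0.89 in the male cultures. Gli3, a transcription factor of hedgehog signalling, differed by 0.50 ± 0.21, nearly all of it in the male cultures (0.97 against 0.04 in the female ones). Of 11 tested osteoblast genes, 0 passed, 7 were higher and 4 lower, and without the wild-type male culture 3 were higher. Atf4, a factor of osteoblast protein synthesis and of the stress response, was above on every Twist1+/- array, by 0.41 ± 0.15 (SE), with 0.19 in the female and 0.63 in the male cultures. Its lowest Twist1+/- array was at 8.41 and its highest wild-type array at 8.40, so the groups nearly touched. Col1a1, Col1a2 and Dlx5 were higher in the male cultures (0.81, 0.96 and 0.76) and not in the female ones (-0.15, -0.07 and -0.11). The osteoblast and bone matrix genes Sp7, Ibsp, Bglap, Dmp1, Phex, Mepe and Ifitm5 were below the level needed for testing.

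In the FGF pathway, 19 genes were tested, 0 passed, 11 were higher and 7 lower, and the median was 0.04. Fgf7, a ligand made by mesenchymal cells, measured 8.55 and 8.62, then 8.86 and 8.80, in the Twist1+/- female and male cultures, against 8.38 and 8.47, then 7.66 and 7.85, in the wild-type ones. Its groups did not overlap, but the difference of 0.62 ± 0.19 (SE, n = 4 arrays per genotype, limma adjusted p = 0.967) split into 0.16 for the female and 1.08 for the male cultures. The ligand gene Fgf18 differed by -0.40 ± 0.18 (SE), with -0.37 and -0.44 in the 2 sexes, and Fgf2 by -0.32 ± 0.17, with -0.18 and -0.46. Fgfr2, the receptor gene altered in other forms of early suture closure, differed by 0.73 in the female and 0.07 in the male cultures.

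In the BMP pathway, 24 genes were tested, 0 passed, 16 were higher and 8 lower, and 7 were higher in all 4 comparisons against 1 lower, where 9.47% of all genes tested were higher and 5.9% lower in all 4. Fst, which encodes the activin and BMP antagonist follistatin, measured 7.72 and 7.80, then 7.89 and 7.85, in the Twist1+/- female and male cultures, against 7.53 and 7.51, then 7.19 and 7.27, in the wild-type ones, a difference of 0.44 ± 0.13 (SE, n = 4 arrays per genotype). Fst differed by 0.24 in the female and 0.64 in the male cultures. Bmp5, a ligand, differed by 0.41 ± 0.17 (SE), with 0.14 and 0.69 in the 2 sexes, and also did not overlap. The ligand Gdf6 differed by 0.35 and the receptor Bmpr2 by 0.20, both higher in each sex. The list's median was 0.14, with 0.13 in the female and 0.10 in the male cultures. Without the wild-type male culture it was 0.06, with 14 of the 24 genes higher, against 0.047 and 59.7% over all genes tested. In the TGF-beta pathway, 9 of 18 tested genes were higher and 9 lower, 0 passed, and the coreceptor gene Tgfbr3 differed by 0.09 in the female and 0.81 in the male cultures.

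In the WNT pathway, 25 genes were tested, 0 passed, 17 were higher and 8 lower. The median was 0.12, and without the wild-type male culture it was -0.03, with 11 genes higher. Besides Frzb, the secreted antagonist gene Dkk2 did not overlap. It measured 7.06 and 7.42, then 7.39 and 7.17, in the Twist1+/- female and male cultures, against 6.63 and 7.00, then 5.45 and 5.86, in the wild-type ones, a difference of 1.03 ± 0.31 (SE, n = 4 arrays per genotype, limma adjusted p = 0.967). The Twist1+/- cultures and the wild-type female culture lay within 1 of each other, and the wild-type male culture lay lower. The ligand gene Wnt4 was below on every Twist1+/- array, at 4.20 to 4.45 against 4.61 to 4.92, by -0.48 ± 0.15 (SE), with -0.49 and -0.47 in the 2 sexes. At 3 days Wnt4 had differed the other way, by 0.30. The wild-type male culture was at least 1 below all others at 6 of the 25 genes.

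In the hedgehog pathway, 10 genes were tested, 0 passed, 8 were higher and 2 lower. The coreceptor gene Cdon measured 7.97 and 8.15, then 7.89 and 8.01, in the Twist1+/- female and male cultures, against 7.70 and 7.89, then 6.21 and 5.99, in the wild-type ones. The wild-type male culture alone was low, so the difference of 1.06 ± 0.40 (SE, n = 4 arrays per genotype) split into 0.27 for the female and 1.85 for the male cultures. Ihh, a hedgehog ligand of bone, was below on every Twist1+/- array by -0.53 ± 0.20 (SE), with -0.06 and -0.99 in the 2 sexes. Its highest Twist1+/- array was at 5.62 and its lowest wild-type array at 5.66. The receptor gene Ptch1 differed by 0.34 ± 0.17. In the Notch pathway, 4 of 12 tested genes were higher and 8 lower, and 0 passed. Without the wild-type male culture 3 of the 12 were higher.

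Ephrin signals mark the boundary between the cells of the frontal and parietal sides of the suture. Of 16 tested ephrins and Eph receptors, 0 passed, 13 were higher and 3 lower, where 56.6% of all genes tested were higher. By sex, 9 were higher in the female and 12 in the male cultures. Without the wild-type male culture 10 of the 16 (62.5%) were higher, against 59.7% of all genes tested. The receptor gene Epha4 measured 7.04 and 6.78, then 6.71 and 6.59, in the Twist1+/- female and male cultures, against 6.75 and 6.41, then 5.39 and 5.82, in the wild-type ones, a difference of 0.69 ± 0.29 (SE, n = 4 arrays per genotype). It was higher in all 4 comparisons, by 0.33 in the female and 1.05 in the male cultures, although the groups overlapped. Epha7 differed by 0.36 ± 0.20, with 0.31 and 0.42 in the 2 sexes. Epha3 went opposite ways, with -0.38 in the female and 2.41 in the male cultures. Among 23 tested semaphorins and plexins, 16 were higher and 7 lower, and 17 were higher without the wild-type male culture. Sema5a (0.83 ± 0.29, with 0.48 in the female and 1.18 in the male cultures) and the receptor gene Plxnc1 (0.35 ± 0.12, with 0.16 and 0.54) were above on every Twist1+/- array, and Sema3c differed by 0.03 in the female and 1.66 in the male cultures.

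Of 15 tested IGF pathway genes, 0 passed, 11 were higher and 3 lower, and without the wild-type male culture 7 were higher. Insr, the insulin receptor gene, was above on every Twist1+/- array by 0.30 ± 0.13 (SE, n = 4 arrays per genotype), with 0.29 and 0.31 in the 2 sexes, and Pappa2, a relative of Pappa, differed by 0.51 and 0.52. Igfbp5, which encodes an IGF-binding protein, had the largest male difference of the genes plotted by array. It measured 9.66 and 9.84, then 9.45 and 9.90, in the Twist1+/- female and male cultures, against 9.63 and 9.92 in the wild-type female and 6.18 and 6.00 in the wild-type male culture. The difference of 1.78 ± 0.84 (SE, n = 4 arrays per genotype, limma adjusted p = 0.967) was therefore -0.03 in the female and 3.59 in the male cultures.

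Genes of the extracellular matrix were low in the wild-type male culture. Of 37 tested matrix genes, 0 passed and 28 were higher in Twist1+/- cells, but 30 were higher in the male and 7 in the female cultures, with medians of 0.47 and -0.13. Over all genes tested, 53.1% were higher in the male and 55% in the female cultures. Lum, a small leucine-rich proteoglycan of collagen fibres, measured 7.00 and 7.11, then 6.84 and 6.86, in the Twist1+/- female and male cultures, against 7.05 and 7.09, then 4.31 and 3.57, in the wild-type ones. Dcn, its relative decorin, differed by -0.14 in the female and 2.70 in the male cultures, and Thbs2, a thrombospondin, by -0.16 and 2.33. In all 3 genes the Twist1+/- cultures and the wild-type female culture were alike and the wild-type male culture was low. That culture was at least 1 below all others at 12 of the 37 matrix genes, against 176 of all 13453 genes.

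Without the wild-type male culture, 12 of the 37 matrix genes were higher and their median was -0.08. Over all genes tested, 59.7% were higher in that comparison and the median was 0.047. The 17 tested mesenchymal markers had the same split, with 14 higher in the male and 5 in the female cultures and medians of 0.81 and -0.14. Their mean level was 8.56 and 8.67 in the Twist1+/- female and male cultures and 8.65 in the wild-type female culture, against 7.76 in the wild-type male culture. Of 31 tested collagens, 15 were higher and 16 lower, with 6 higher without the wild-type male culture, and the basement membrane genes Col4a1 and Col4a2 differed by -1.10 and -0.89 in the male and by -0.07 and -0.02 in the female cultures. Of 25 tested matrix proteases and inhibitors, 20 were higher, 8 in the female and 18 in the male cultures, and 10 without the wild-type male culture. Adamts5, an aggrecan-cleaving protease, was above on every Twist1+/- array by 0.64 ± 0.23 (SE, n = 4 arrays per genotype), with 0.12 and 1.16 in the 2 sexes. Its lowest Twist1+/- array was at 9.37 and its highest wild-type array at 9.35. The part of a lower mesenchymal share in these matrix differences was not tested.

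Genes induced by interferon were split by sex in the same way. Of 20 tested, 0 passed, and 19 were higher in Twist1+/- cells over both sexes, against 56.6% of all genes tested. In the male cultures 19 were higher, with a median of 1.04, and in the female cultures 7, with a median of -0.12. Isg15, a ubiquitin-like protein that interferon induces, measured 7.55 and 7.49, then 7.15 and 7.42, in the Twist1+/- female and male cultures, against 7.48 and 7.22, then 5.86 and 5.50, in the wild-type ones. The wild-type male culture alone was low, and it was at least 1 below all others at 11 of the 20 genes. Without that culture 9 of the 20 were higher. Ifih1, a sensor of viral RNA, differed by 0.24 in the female and 1.23 in the male cultures. At 3 days the female cultures had a median of -0.67 and the male cultures of 1.24.

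Of 26 tested chemokines and cytokines, 0 passed and 20 were higher in Twist1+/- cells, 17 in each sex. The medians were 0.17 in the female and 0.24 in the male cultures. Over all genes tested, 56.6% were higher, with 55% in the female and 53.1% in the male cultures. Without the wild-type male culture 17 of the 26 (65.4%) were higher, against 59.7% of all genes tested. That culture was at least 1 below all others at 6 of the 26 and at least 1 above them at 1. Ccl7, which draws monocytes, measured 9.12 and 8.98, then 8.86 and 8.98, in the Twist1+/- female and male cultures, against 8.79 and 8.60, then 8.65 and 8.48, in the wild-type ones. Its groups did not overlap, and its difference of 0.36 ± 0.12 (SE, n = 4 arrays per genotype, limma adjusted p = 0.967) was 0.36 in each sex. Cxcl5, which draws neutrophils, also did not overlap and differed by 0.34 in the female and 1.71 in the male cultures. Ccl8 differed by 0.97 ± 0.38 (SE) over both sexes, with 0.30 in the female and 1.65 in the male cultures. Cxcl14 differed by 0.48 ± 0.19 (SE), with 0.18 and 0.78.

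The macrophage markers themselves were close between the genotypes at 7 days. Of 25 tested, 0 passed, 5 were higher and 20 lower, with medians of -0.07 in the female and -0.10 in the male cultures. The count higher was 11 without the wild-type male culture. Csf1r, the receptor of macrophage growth, measured 10.24 and 10.01, then 10.20 and 10.26, in the Twist1+/- female and male cultures, against 10.26 and 10.24, then 10.46 and 10.36, in the wild-type ones. These values differed by -0.15 ± 0.11 (SE, n = 4 arrays per genotype). At 3 days the list had medians of -0.36 in the female and -1.05 in the male cultures, and the 7-day medians lay nearer 0; this change between the days was not tested for the list. Of 26 tested lysosome genes, which macrophages express strongly, 14 were higher and 12 lower.

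The cell cycle list was lower in both sexes. Of 30 tested genes, 0 passed, 29 were lower and 10 were lower in all 4 comparisons (5.9% over all genes), with medians of -0.21 in the female and -0.19 in the male cultures against 0.03 in each sex over all genes. Mki67, a marker of dividing cells, measured 7.41 and 6.83, then 7.89 and 7.81, in the Twist1+/- female and male cultures, against 7.49 and 8.08, then 7.96 and 8.19, in the wild-type ones. Tk1, an enzyme of thymidine salvage, differed by -0.33 ± 0.15 (SE, n = 4 arrays per genotype), and Cdk1, the kinase that drives mitosis, by -0.28 ± 0.15. For these 3 genes the genotypes overlapped, and male cultures were on average higher than female cultures of the same genotype. The list's median male minus female difference was 0.34 in wild-type and 0.35 in Twist1+/- cells. Without the wild-type male culture, which leaves female wild-type cells against both sexes, 16 of the 30 genes were higher and the median was 0.01. Over all genes tested, 59.7% were higher in that comparison and the median was 0.047. The list's median was -0.08 in control medium and -0.31 with thyroxine.

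Of 22 tested contractile genes, 0 passed, 17 were lower over both sexes, and 16 were higher in the female and 5 in the male cultures, with medians of 0.12 and -0.45. Of the 22, 18 were higher without the wild-type male culture. Myl9, a myosin light chain, differed by -0.02 in the female and -0.59 in the male cultures. Lpl, the lipase of adipocytes and macrophages, was lower in each sex, by -0.50 and -0.88. Of 19 tested stress response genes, 16 were higher, 8 in the female and 16 in the male cultures, and 9 without the wild-type male culture. Dnajb9, a chaperone of the endoplasmic reticulum, and Chac1, an enzyme that breaks down glutathione, were above on every Twist1+/- array, by 0.41 ± 0.14 and 0.27 ± 0.12 (SE, n = 4 arrays per genotype). Of 14 tested thyroid hormone genes, 7 were higher and 7 lower. Dio2, the enzyme that turns thyroxine into its active form, was above on every Twist1+/- array, at 4.95 to 5.66 against 4.38 to 4.86, by 0.51 ± 0.21 (SE).

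Cell adhesion genes of the epithelial to mesenchymal transition list were mixed, with 8 of 19 higher and 11 lower. By sex, 13 were higher in the female and 9 in the male cultures. Without the wild-type male culture 13 of the 19 (68.4%) were higher, against 59.7% of all genes tested. Cdh1, the epithelial cadherin, measured 5.70 and 5.86, then 5.90 and 5.96, in the Twist1+/- female and male cultures, against 5.56 and 5.44, then 5.41 and 5.24, in the wild-type ones. It did not overlap and differed by 0.44 ± 0.15 (SE, n = 4 arrays per genotype, limma adjusted p = 0.967), with 0.28 in the female and 0.61 in the male cultures. At 3 days the differences had been -0.23 and -0.25 in the 2 sexes. Vcam1, an adhesion molecule, was above on every Twist1+/- array, with 0.16 in the female and 1.55 in the male cultures, and Ncam1 differed by 0.28 and 0.25. The lowest Twist1+/- array of Vcam1 was at 9.32 and its highest wild-type array at 9.28.

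**Figure D4:**
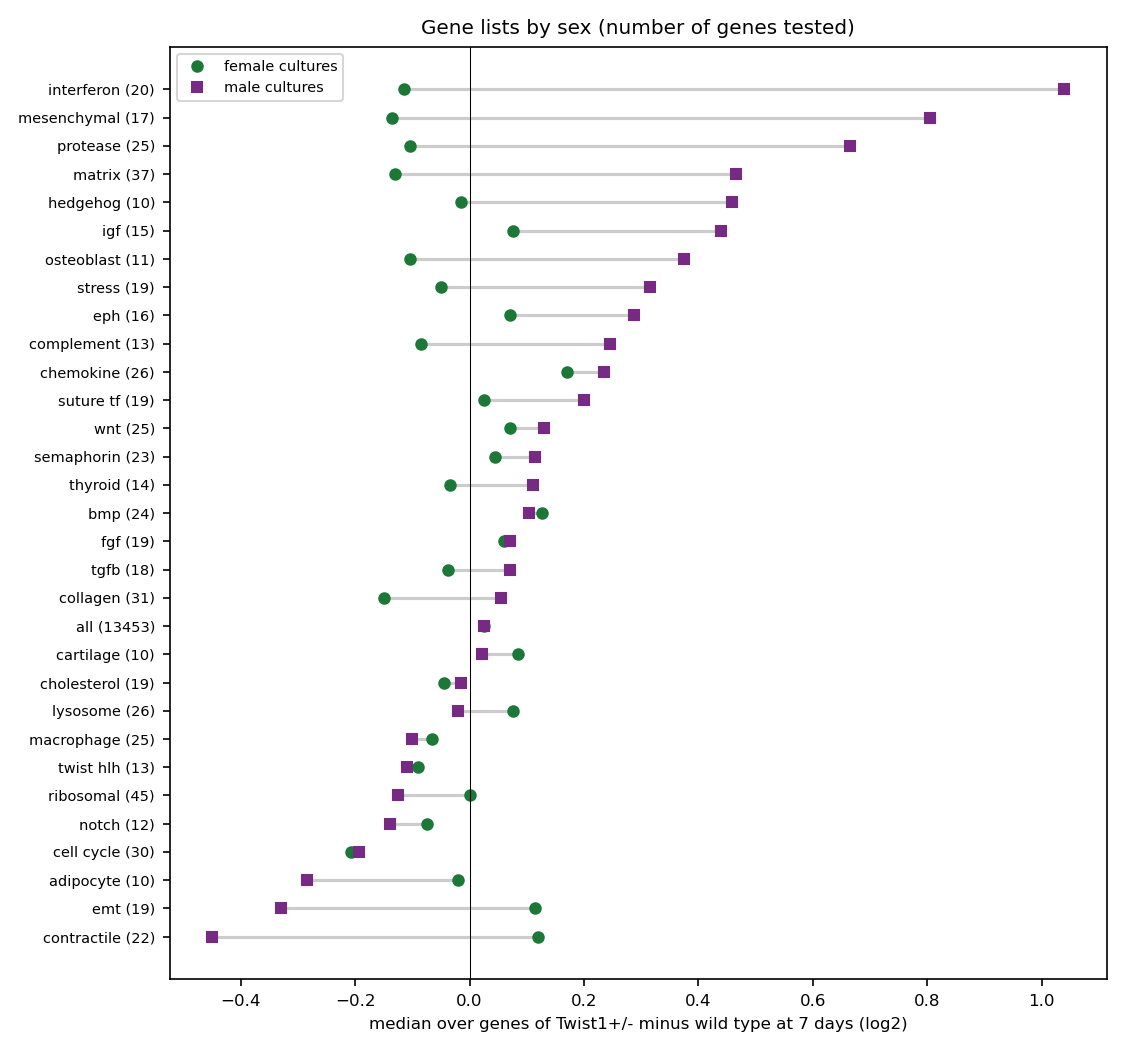
Median genotype difference at 7 days (x axis, log2) over the tested genes of each list (y axis, number of genes in brackets), with circles for the female cultures and squares for the male cultures. The interferon, mesenchymal, protease and matrix lists lie near or below 0 in the female and well above 0 in the male cultures, the contractile list lies the other way, and the cell cycle list lies near -0.2 in both.

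Leaving out either wild-type culture gave genes that passed the test, with 1 wild-type culture standing for its genotype. Without the wild-type male culture 8 genes passed (0.0595%), 5 higher and 3 lower. Besides Slc13a5 these were Ptgs2, the prostaglandin-producing enzyme (1.18), Ccl6, a chemokine (1.16), Inhba, an activin subunit (0.83), and Il7r, a cytokine receptor (0.94), all higher, and Gas1, a hedgehog coreceptor (-0.97), Ccdc3 (-0.86) and Gfra1, a coreceptor for GDNF (-1.02), all lower. Of these 8, Slc13a5 and Il7r had the same sign in the male cultures, at 1.11 and 0.24, and the other 6 went the opposite way there, from -1.36 for Ptgs2 to 1.43 for Gas1. These 8 genes are named because they passed, a choice made after their values were seen.

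Without the wild-type female culture 909 genes passed (6.76%), 657 higher (4.88%) and 252 lower (1.87%), of which 6 were among the 8 above. Igfbp5 led with 3.62 ± 0.13 (SE, limma adjusted p = 1.05e-06), ahead of the WNT antagonist Sfrp1 with 3.44, and Lum, Dcn, Thbs2, Vcam1, Dkk3, Epha3 and Cdon also passed. By list, 16 of 20 interferon genes, 17 of 37 matrix genes and 10 of 17 mesenchymal markers rose in that fit, and 10 of 22 contractile genes fell. The matching counts for cell cycle genes were 0 higher and 2 lower of 30. Each of these calls compares both Twist1+/- cultures with the wild-type male culture alone. The 6 genes shared with the 8 above were counted without regard to sign. At 6 of those 8 the male cultures had the opposite sign, so the overlap does not show the same direction. Leaving out either Twist1+/- culture gave 0 genes, with 758 genes at an unadjusted p under 0.05 without the female and 235 without the male culture in limma.

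The genotype difference was next taken within each medium, from a fit of the 4 groups of genotype and medium. In control medium 3 genes passed (0.0223%), all lower in Twist1+/- cells, and 914 (6.79%) had an unadjusted p under 0.05. Ywhag, a phosphoserine-binding adaptor protein, fell by 2.62, Tuba1b, an alpha tubulin, by 2.34, and Rps18, a ribosomal protein, by 2.64 on the log2 scale (limma adjusted p = 0.0322 for each). With thyroxine 0 genes passed in limma, and 418 (3.11%) had an unadjusted p under 0.05. In that medium the same 3 genes differed by 0.21, 0.25 and 0.46.

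The test of the difference between the media called 8 genes (0.0595%), 7 of them with a genotype difference that was higher with thyroxine than in control medium, and 1563 genes (11.6%) had an unadjusted p under 0.05. The 7 were Ywhag (2.83 ± 0.25, limma adjusted p = 0.0119), Rps18 (3.10 ± 0.28, 0.0119), Tuba1b (2.59 ± 0.25, 0.0122), Myl12a (2.59 ± 0.28, 0.0196), Tpt1 (2.45 ± 0.28, 0.0222), Atp5d (3.56 ± 0.42, 0.0274) and Zfp526 (2.61 ± 0.34, 0.048), with the SE over n = 2 arrays per genotype and medium. The gene in the other direction was Rps12-ps24, a ribosomal protein pseudogene (-3.02). Because each medium has 2 arrays per genotype, the 8 calls rest on 2 Twist1+/- control arrays.

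Those 2 arrays, Twist1+/- female and male in control medium, carried the difference. Ywhag measured 6.29 and 6.73 on them and 9.14 and 8.91 on the Twist1+/- thyroxine arrays, with 8.91 to 9.34 in wild-type cells in control medium and 8.91 and 8.72 with thyroxine. Atp5d, a subunit of the mitochondrial ATP synthase, measured 6.13 and 6.99 on them, against 8.62 to 9.78 on the other 14 arrays of the series. At 8 genes, Prss23, Atp5d, Myl12a, Ywhag, Rps18, Zfp526, Tpt1 and Tmem202, both arrays were at least 1 below all 14 others, and at 1 gene, Rps12-ps24, both were at least 1 above. No other pair of arrays of a genotype, medium and day had such a gene in either direction.

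Most other probe sets of the same genes did not share the low values, and Tuba1b had no other probe set to compare. Relative to the mean of the 14 other arrays, the brightest probe set of Atp5d was at -2.84 on the 2 arrays and its other probe set at -0.19. For Tpt1 the values were -1.94 and -0.01, for Prss23 -2.92 and -0.34, for Zfp526 -2.31 and 0.01, and for Rps18 -2.40 against -0.21 and -0.13. Ywhag had a second probe set that was also low, at -1.42, beside a further set at -0.09. The other probe sets of Rps18 and Myl12a averaged 3.39 to 4.69 on the other arrays, and that of Tmem202 averaged 2.68. At such levels a lower value has little room to show. Those of Atp5d, Tpt1 and Prss23 lay at 7.42 to 8.71. The reason for the difference between probe sets was not tested. The lower differences of Prss23 and Ywhag in both sexes given above come from these 2 arrays, since with thyroxine Prss23 differed by 0.10 and Ywhag by 0.21.

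**Figure D5:**
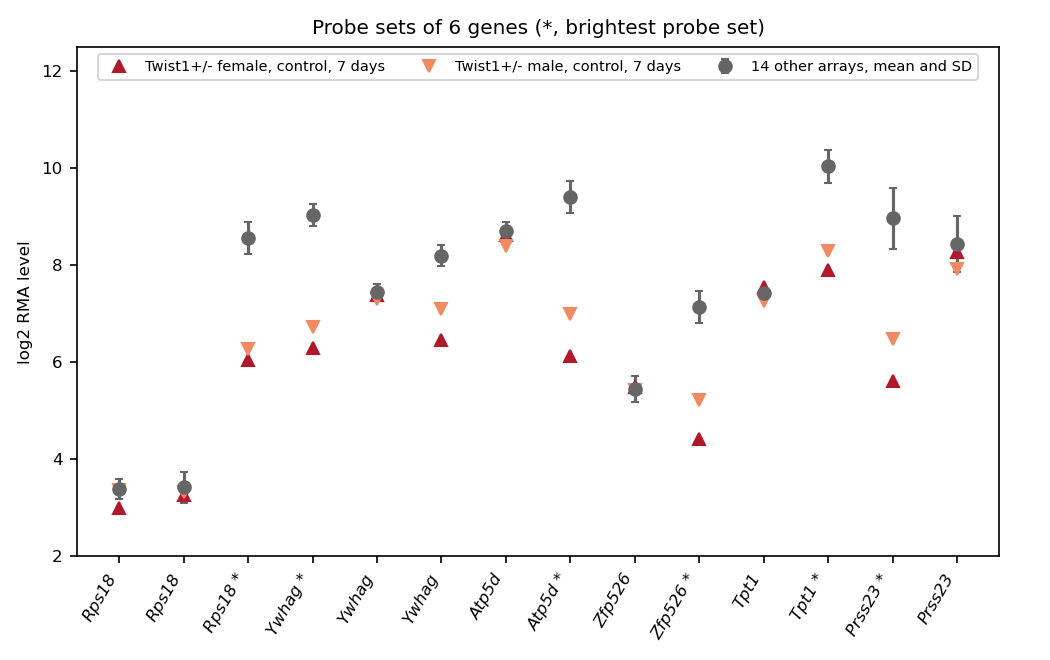
Log2 level (y axis) of each probe set of 6 genes (x axis, the brightest with a star) on the 2 Twist1+/- control arrays at 7 days (triangles) and on the 14 other arrays (circle and bar, mean and SD). The mean of the triangles lies 1.94 to 2.92 below the circle for the brightest probe sets, and within 0.34 of it for the others except a second set of Ywhag.

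The last comparison asked whether the genotype difference at 7 days differed from that at 3 days. No gene passed (limma, smallest Benjamini-Hochberg adjusted p = 0.26), and 1195 genes (8.88%) had an unadjusted p under 0.05 in limma. The 7-day and 3-day differences correlated across genes at 0.305 in the female and 0.545 in the male cultures. Both days carry the same genotype and sex labels, and the labels do not say whether they came from the same flasks or animals. Slc13a5 was 1.00 higher in the female and 0.49 in the male cultures at 3 days, with levels of 8.62 to 8.95 against 7.88 to 8.34. Its level was lower at 7 days in both genotypes, and the difference between days was 0.78 (limma adjusted p = 0.516). Frzb differed by 0.30 at 3 days and by 1.05 at 7 days, and Nt5e by 0.16 and 0.76.

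Twist2 had the opposite sign on the 2 days. It was higher in Twist1+/- cells at 3 days, by 0.99 in the female and 0.36 in the male cultures, and lower at 7 days, so that the difference between days was -1.11 ± 0.26 (SE, n = 2 cultures per genotype, limma adjusted p = 0.516). Gsap, the gamma-secretase activating protein, went the other way, from -0.73 at 3 days to 0.31 at 7 days. Psd4 and Kctd12 also went from negative to positive, with a difference between days of 0.99 and 0.69, as did the pseudogene Hmga2-ps1 with 1.14, and Alox15, a lipoxygenase, from 0.35 to -0.47. These genes are named because they had the smallest p values in their direction, and none passed the adjusted threshold.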

How the data were processed

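RNA of coronal suture cells was measured on 16 Affymetrix whole-transcript arrays, of which the 8 at 7 days were compared. Per probe set, the authors deposited a log2 level; the submitters' processing notes list RMA and the Affymetrix Expression Console. Their versions are not given in the sources. RMA sets all arrays to the same distribution, so a shift of all genes would not be seen, and it compresses differences close to the background. The values ran from 0.57 to 14.05, and array medians from 3.73 to 3.86.

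Of 41345 probe sets, the platform annotation gave 1 symbol for 23521, several for 1814 and none for 16010. For each of 22180 genes the brightest probe set over all arrays was used, and the 13453 whose mean reached 3.905 (the 40th percentile) were tested. The test was limma 3.58.1 (R 4.3.3, statmod 1.5.0), two-sided, with an intensity trend, medium as a factor and the culture as a random block, whose within-culture correlation was 0.349, and with Benjamini-Hochberg adjustment at 0.05. The media were compared in a fit of 4 groups (within-culture correlation 0.508) and the days in a fit of all 16 arrays (0.263), where a culture is a genotype and sex over both days. With 1 culture per genotype and sex, p-values measure the spread between these arrays and cultures, which may be technical in part, not that between animals.

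Members and gene lists were chosen with earlier results of these data known. Named genes were the 10 per direction with the smallest p and the same sign in 4 of 4 comparisons, all genes of the Twist1 list, up to 4 per other list by p, up to 5 per direction for the differences between media and days, sex-linked genes and 9 genes named earlier as low on the 2 Twist1+/- control arrays. Genes named beyond this rule are members of lists below the tested level and genes that passed when a culture was left out. The fit over both media and the fit of the difference between days were tested on simulated data. The fits by medium and those that leave out a culture were not. Alternatives were the random block, sex as a factor, the trend, the filter, the probe set rule, array weights, each medium alone, culture means, all 16 arrays and leaving out each culture. The promoter windows come from RefSeq (GRCm38.p6).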

Additional observations from a re-analysis of the deposited data

Results flagged for a closer look

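Of 248 groups of 4 arrays examined, 9 held an array far from the other 3 of its genotype, where chance alone marks about 1 in 20 groups. In wild-type cells, the female thyroxine array was low for Zfp758 (4.09, others 4.15 to 4.16) and for Ptch1 (4.95, others 5.22 to 5.27). The wild-type male thyroxine array was high for Dlx2 (7.88, others 6.72 to 6.88) and low for Rps18 (7.89, others 8.76 to 8.83) and Atp5d (8.62, others 9.59 to 9.76). The wild-type male control array was low for Dio2 (4.38, others 4.83 to 4.86) and high for Gsap (6.64, others 6.18 to 6.24). In Twist1+/- cells, the male thyroxine array was low for Id1 (5.62, others 5.83 to 5.86) and the male control array for Defa21 (3.87, others 4.73 to 4.87). The SD of the wild-type group is small for Zfp758 and Ptch1, and the distances there are under 0.3.

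The genotype difference with thyroxine minus that in control medium passed limma's test for Ywhag (2.83), Rps18 (3.10), Tuba1b (2.59), Myl12a (2.59), Tpt1 (2.45), Atp5d (3.56), Zfp526 (2.61) and Rps12-ps24 (-3.02). All rest on the 2 Twist1+/- control arrays, and the wild-type male thyroxine array that was low for Rps18 and Atp5d lowers the wild-type side with thyroxine at those 2 genes.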

How the results depend on the processing

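For Twist1+/- against wild type at 7 days, 0 genes passed in the reported fit and in 10 of the 11 alternatives that kept all 4 cultures; control medium alone gave 6. Leaving out a culture gave 0 to 909 genes. In control medium the count was 3, with 0 without the intensity trend, 0 with the 60th percentile filter, 8 with array weights, 7 with all 16 arrays and 0 to 273 when a culture was left out. With thyroxine it was 0, and 0 to 886 when a culture was left out. For the difference between media it was 8, with 0 without the random block, 4 with sex as a factor, 4 without the trend, 13 with the mean of all probe sets, 3 with all 16 arrays, 0 with thyroxine minus control per culture and 0 to 42 when a culture was left out. For the difference between days it was 0, and 0 to 340 when a culture was left out. The highest count each time came without the wild-type female culture. Leave-one-out fits by medium had no random block, since its correlation could not be estimated. Of 126 genes named and tested, 93 kept the sign of their genotype difference in every alternative. The leading genes were chosen for the same sign in 4 of 4 comparisons of these arrays, which favours a kept sign. The share over all genes tested was not counted. The labels carry no replicate numbers; sex as a factor, which pairs cultures by sex, gave 0, 4, 0 and 4 genes for both media, control medium, thyroxine and the difference between media, so it moved only the last by over 1.5 times. Depth is not defined for arrays; dim genes, near the filter level of 3.905, limit what the signal can show.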
